A study of Mus musculus with 6 samples.

Results

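A set of 56 genes for mitosis, the kinetochore and the spindle checkpoint was examined in cultured calvarial preosteoblasts, the precursors of bone-forming osteoblasts. The members were taken by gene symbol for their known roles, and all 56 were found among the 17001 rows of the expression table. They fall into 8 classes, which are the spindle checkpoint (8 genes), the outer kinetochore (9), the inner kinetochore with the loading of its histone CENP-A (13), the chromosomal passenger complex (4), mitotic kinases with the B-type cyclins and TPX2 (6), anaphase and cohesion control (4), mitotic kinesins (6), and condensin I with topoisomerase (6). The cells came from 3-day-old mice and were sequenced as 3 libraries of *Nell2* fx/fx controls and 3 libraries labelled Col1-cre;*Nell2* fx/fx (cKO), so that both groups carried the floxed *Nell2* alleles and differed by the Cre transgene. In the cKO mice a fragment of the mouse Col1a1 promoter drives Cre, which is meant to excise the floxed *Nell2* segment from osteoblast lineage cells. Whether each library came from 1 pup or from pooled pups is not given in the sources used here, and the p-values measure only the spread between these libraries, which may be technical. Expression was deposited as FPKM, the number of fragments divided by transcript length and by the library's mapped fragments, so that levels of different genes can be compared per length of transcript.

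*Nell2*, the targeted gene, stood at 3.17, 2.59 and 1.88 FPKM in the controls (replicates 1, 2 and 3) and at 5.64, 1.61 and 5.74 FPKM in those labelled cKO (replicates 1, 2 and 3). All values per library are given in this order. It was thus not lower in those labelled cKO as a group, and every direction given here follows the labels. The FPKM sums of the libraries lay between 573307 and 606428, and the number of reads behind them is unknown. Marker genes of the labelled cell type were present, with *Col1a1* between 8053 and 8578 FPKM in the 6 libraries, but 3 of the 6 markers differed between the groups at an unadjusted p under 0.05, each without overlap. The osteoblast transcription factor gene *Sp7* was at 17.6, 16.9 and 13.2 FPKM in the controls and at 12.4, 10.4 and 10.3 FPKM in those labelled cKO (log2 fold change -0.48, standard error 0.12, adjusted p = 0.312). *Alpl*, encoding alkaline phosphatase, was lower too (log2 fold change -0.45), and *Postn*, encoding the matrix protein periostin, was higher (0.46), with the same adjusted p. The summed level of 4 epithelial markers (*Krt8*, *Krt18*, *Epcam* and *Cdh1*) ran from 0.46 to 13.2 FPKM in the controls and from 15.9 to 42.5 FPKM in the libraries labelled cKO, the highest sum being that of cKO replicate 1. All 3 of these epithelial genes that passed the filter on low values were higher at an unadjusted p under 0.05, and *Epcam* was listed at 0 in control replicate 1. Summed markers of macrophages (33.3 to 86.4 FPKM in controls, 44.6 to 68.8 in those labelled cKO), muscle (29.8 to 55.0 and 40.6 to 47.0), endothelium (1.53 to 3.19 and 1.62 to 3.08) and cartilage (89.6 to 151.9 and 129.5 to 162.8) overlapped between the groups. Of the 4 cartilage genes, *Acan* and *Col9a1* were higher at an unadjusted p under 0.05 (log2 fold changes 0.50 and 0.45), and *Col9a1* did so without overlap. Y-linked genes were at 49.6 to 54.7 FPKM in sum in control replicate 3 and in cKO replicates 1 and 3 as labelled, and at 0.29 or less in the other 3. The part of these marker genes or of other cell types in the results on mitotic genes was not tested. For sex, a fit with the level of the Y-linked genes as covariate was run. In it, 31 of the 56 members were lower at an unadjusted p under 0.05, beside 5.63% of all tested genes. Without the covariate these were 41 and 7.76%. The members' median log2 fold change was -0.51 with it and -0.50 without it. The part of sex was not tested in any other way.

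Cells make most mitotic mRNAs only shortly before they divide. In resting and early cycling cells the DREAM complex keeps these genes silent, and later the MuvB core joins with B-MYB and FOXM1 to switch them on. Many of their promoters carry a cell cycle genes homology region (CHR), with the letters TTTGAA, and CCAAT boxes, which bind the factor NF-Y. The protein products build the kinetochore on each centromere, attach it to spindle microtubules, delay anaphase until every chromosome is attached, and then part and package the chromosomes. In bulk RNA, fewer dividing cells and less mRNA per dividing cell cannot be told apart.

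Most of the 56 members had lower values in 2 of the 3 libraries labelled cKO, while the third was close to the controls. Relative to the mean of the 3 controls, the median member stood at 98.2%, 113.5% and 90.6% in control replicates 1, 2 and 3, at 91.0% in the library labelled cKO replicate 1, and at 59.1% and 52.9% in cKO replicates 2 and 3. The median of all 11590 tested genes stayed between 97.1% and 100.7% of its control mean in every library. In cKO replicate 3, 54 of the 56 members lay below all 3 controls, and in cKO replicate 2, 52 did. In cKO replicate 1 only 22 did, while 33 were within the range of the controls and 1, *Pttg1*, was above it. For 50 members, cKO replicates 2 and 3 were both below cKO replicate 1 and below every control. The highest value of a member was that of control replicate 2 in 48 of 56 cases, and the lowest was that of cKO replicate 3 in 41. Summed over the members, FPKM amounted to 646.0, 731.3 and 608.6 in the controls and to 610.5, 425.9 and 390.0 in those labelled cKO.

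**Figure D1:**
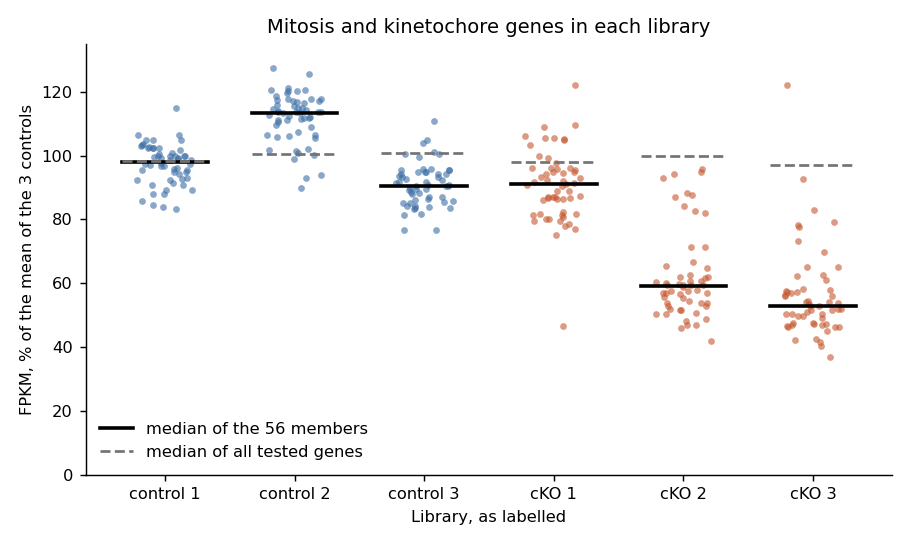
Each point is 1 of the 56 members, plotted for the 6 libraries as labelled, with its FPKM as a percentage of the mean of the 3 controls on the y axis. Black lines mark the median of the members and dashed grey lines the median of all tested genes. The medians of cKO 2 and cKO 3 lie at 59.1% and 52.9%, and that of cKO 1 at 91.0%, near control 3 at 90.6%.

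The groups were compared with limma's moderated test on log2(FPKM + 1) over the 11590 rows in which 3 or more libraries reached 1 FPKM, with Benjamini-Hochberg adjustment over all of them. This filter kept all 56 members, although 4 of them (*Knl1*, *Ska1*, *Cenpf* and *Sgo1*) were under 1 in at least 1 library labelled cKO. None of the 56 had an adjusted p under 0.05, where the share over all tested genes was 0%, and the adjusted p of the members ran from 0.312 to 0.785. All 56 log2 fold changes were below 0, from -0.77 (*Plk1*) to -0.06 (*Bub3*), with a median of -0.50, against 55.8% of all tested genes below 0 and a median of -0.02 over them. At an unadjusted p under 0.05, 41 members (73.2%) were lower and 0 higher, beside 7.76% lower and 5.37% higher of all tested genes. In 21 members (37.5%) all 3 values labelled cKO were below all 3 control values, which held for 11.8% of all tested genes, and in 0 members they were all above, which held for 6.51%. With 3 libraries against 3, an exact permutation test of a single gene cannot go below p = 0.10.

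In each of the 8 classes the median member was lower in cKO replicates 2 and 3 than in cKO replicate 1. The lowest median was that of cKO replicate 3, except among the kinases and cyclins, where it was that of cKO replicate 2. The class medians, as a percentage of the control mean, lay between 83.8% (chromosomal passenger complex) and 95.8% (inner kinetochore) in cKO replicate 1, between 52.5% (kinases and cyclins) and 66.8% (inner kinetochore) in cKO replicate 2, and between 47.7% (outer kinetochore) and 55.8% (condensin I and topoisomerase) in cKO replicate 3. In control replicate 2 they were between 110.5% and 115.6%. The mean level over the 6 libraries ranged from 0.99 to 40.2 FPKM among the members, with a median of 7.58 FPKM beside 11.1 FPKM for all tested genes.

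The counts of members under a threshold depended on which libraries were kept. With any 1 library left out, at least 54 of the 56 log2 fold changes were still below 0. In the fit of all 6 libraries, 55.8% of all tested genes were below 0. Without the library labelled cKO replicate 1, the one nearest to the controls, 32 members had an adjusted p under 0.05, all lower, where 1.53% of all tested genes were lower with such a p, and the median log2 fold change of the members was -0.69. Under that setting 49 members were lower at an unadjusted p under 0.05, beside 12% of all tested genes, and 51 did not overlap, beside 24.3%. Leaving out any other library gave 0 members with an adjusted p under 0.05. The 41 members at an unadjusted p under 0.05 became 23 without control replicate 1, 17 without control replicate 2, 19 without cKO replicate 2 and 17 without cKO replicate 3, where the share of all tested genes fell too, from 7.76% to 4.81%, 4.09%, 4.94% and 3.89%. Without control replicate 3 there were 37 such members, beside 7.38%. The 21 members that did not overlap became 37 without control replicate 3, where 19.5% of all tested genes did not overlap in that direction, since fewer libraries have to be separated.

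**Figure D2:**
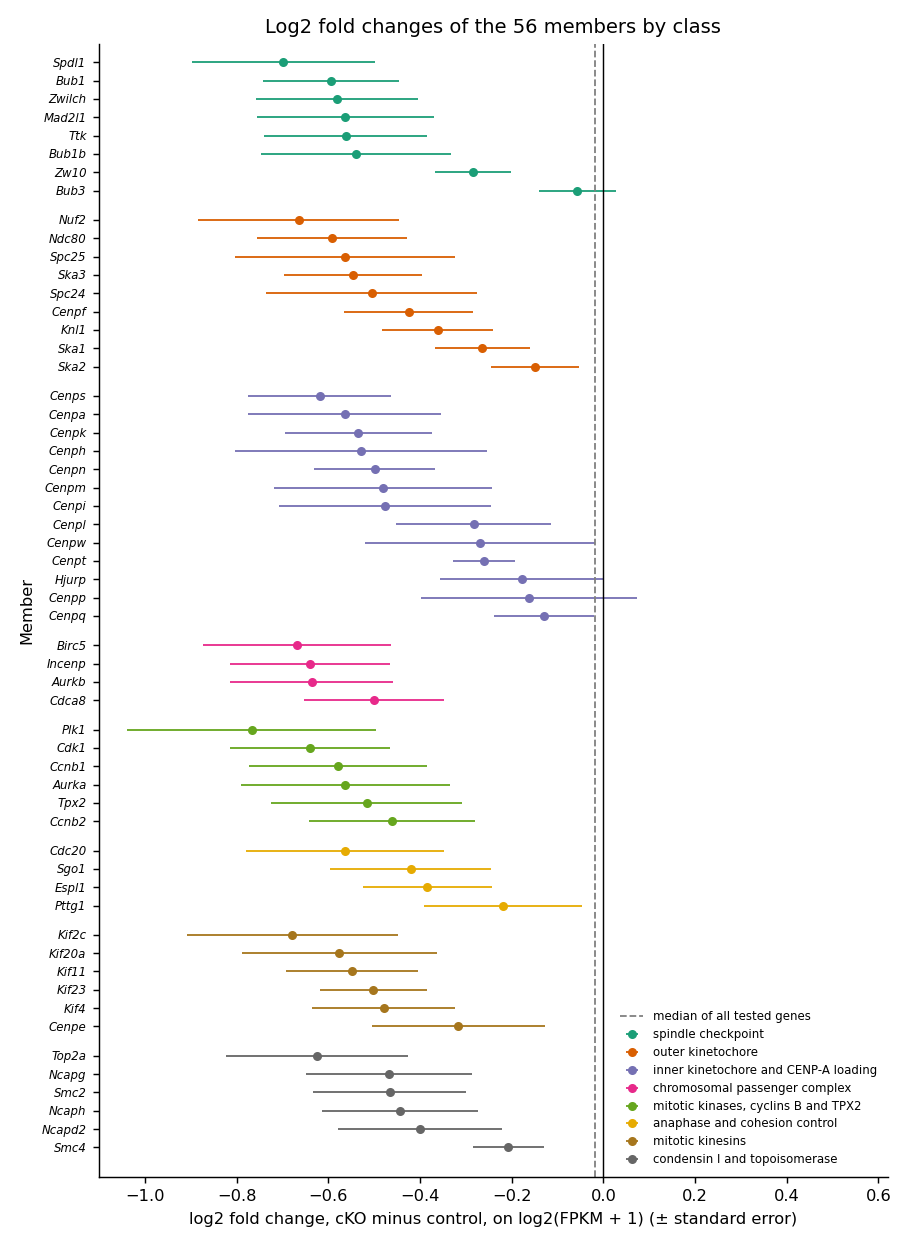
Points give the log2 fold change of each of the 56 members (cKO minus control, on the log2(FPKM + 1) scale, x axis) with its standard error, coloured by class. The dashed line is the median of all tested genes at -0.02. All 56 points lie below 0, from -0.77 for *Plk1* to -0.06 for *Bub3*, and none had an adjusted p under 0.05.

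Many of the members' promoters, but not all, held the letters named above. RefSeq windows of GRCm38.p6, from 250 bases before to 50 bases after the annotated start, were found for 48 of the 56 members, in 51 windows. The CHR letters TTTGAA stood on either strand in 31 of these windows (60.8%), beside 17.9% of all 32851 windows and 11.9% of the 11850 windows of tested genes. CCAAT, again on either strand, stood in 38 (74.5%), beside 37.4% of all windows and 38% of those of tested genes. Both motifs stood in 26 windows (51%), beside 6.95% and 4.9%. In 81 windows of other mitotic genes, taken from the 5 further lists described with the comparison of gene lists, the CHR letters were found in 40.7%, CCAAT in 56.8% and both in 28.4%. In 21 windows of DNA replication genes, the CHR letters were found in 19%, CCAAT in 71.4% and both in 14.3%. A related form, TTTAAA, stood in 19.6% of the members' windows and 13.2% of all windows. Of the 35 CHR matches in the members' windows, 77.1% began in the stretch from base -100 to base 50, which makes up 50% of the window, and of the 72 CCAAT matches 68.1% did. A match is a description of the letters and does not show that a factor binds.

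**Figure D3:**
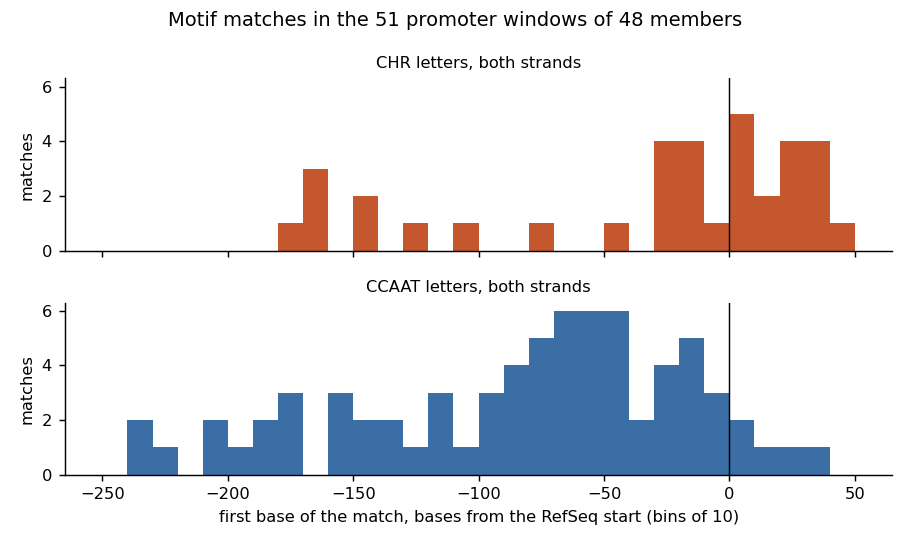
The 2 panels count matches of the CHR letters and of CCAAT, both strands, by the distance of their first base from the annotated start (x axis, bases, bins of 10) in the 51 windows of 48 members. CHR matches gather near the start, with 77.1% from base -100 on, and CCAAT matches mostly lie upstream of it.

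The 120 bases before the start are shown for 6 members, to compare 4 that hold both motifs and differed between the groups at an unadjusted p under 0.05 with *Bub3*, which also holds both and differed least of all members, and with *Birc5*, which holds neither and differed more than most. Each is written 5′ to 3′ on the strand of its gene, and capitals mark TTTGAA or its reverse complement TTCAAA, and CCAAT or its reverse complement ATTGG.
*Cdc20* (chr4:118437344-118437463, minus strand): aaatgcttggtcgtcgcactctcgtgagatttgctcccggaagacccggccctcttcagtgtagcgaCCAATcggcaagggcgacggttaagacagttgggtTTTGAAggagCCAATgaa
*Cdk1* (chr10:69352913-69353032, minus strand): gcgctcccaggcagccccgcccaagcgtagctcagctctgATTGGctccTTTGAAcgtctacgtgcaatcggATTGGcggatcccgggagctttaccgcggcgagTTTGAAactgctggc
*Top2a* (chr11:99024190-99024309, minus strand): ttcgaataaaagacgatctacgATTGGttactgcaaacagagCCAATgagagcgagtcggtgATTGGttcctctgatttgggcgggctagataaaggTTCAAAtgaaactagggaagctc
*Kif11* (chr19:37376262-37376381, plus strand): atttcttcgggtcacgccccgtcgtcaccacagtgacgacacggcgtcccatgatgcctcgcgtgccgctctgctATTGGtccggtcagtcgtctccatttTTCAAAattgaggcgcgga
*Bub3* (chr7:131560250-131560369, plus strand): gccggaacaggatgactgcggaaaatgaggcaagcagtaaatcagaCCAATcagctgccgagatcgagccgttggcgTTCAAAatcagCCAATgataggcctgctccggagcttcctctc
*Birc5* (chr11:117849117-117849236, plus strand): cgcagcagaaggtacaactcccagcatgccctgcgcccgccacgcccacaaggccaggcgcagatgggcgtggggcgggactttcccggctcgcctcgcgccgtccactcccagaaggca
In *Cdc20*, *Cdk1*, *Top2a* and *Kif11* a CHR match began at bases -18, -15, -23 and -19. In *Bub3* it began at base -43 of the window shown, and at base -167 of a second window that starts elsewhere. The 6 genes were chosen with their values known, and nothing about the motifs follows from them.

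In the spindle checkpoint, whose proteins hold back anaphase at unattached kinetochores, 7 of 8 genes were lower at an unadjusted p under 0.05 and 5 of 8 did not overlap. For this and the following classes, the shares over all tested genes were 7.76% and 11.8%. The kinase gene *Bub1* was at 5.12, 5.34 and 4.46 FPKM in the controls and at 3.99, 2.52 and 2.5 FPKM in those labelled cKO. All 3 of the latter were below all controls, with cKO replicates 2 and 3 much the lowest, and the log2 fold change was -0.59 (standard error 0.15, adjusted p = 0.312). *Mad2l1*, whose product binds and inhibits CDC20, was at 20.2, 21.7 and 19.5 FPKM in the controls and at 18.8, 12.7 and 10.3 FPKM in the libraries labelled cKO (log2 fold change -0.56, standard error 0.19). *Bub1b*, which encodes the BUBR1 part of the same inhibitor, was at 11.3, 13.1 and 10.5 FPKM in the controls and at 11.0, 7.04 and 5.71 FPKM in those labelled cKO, so that cKO replicate 1 lay within the controls. *Spdl1*, *Zwilch* and *Zw10* encode the dynein adaptor of the kinetochore and parts of the RZZ complex, and their log2 fold changes were -0.70, -0.58 and -0.28, each without overlap. The kinase gene *Ttk*, which starts checkpoint signaling, had a log2 fold change of -0.56, with 1 control below cKO replicate 1. *Bub3*, a partner of BUB1 and BUBR1, was the exception. It had the highest level of all members, at 38.1, 45.8 and 39.3 FPKM in the controls and 41.0, 38.9 and 38.1 FPKM in the libraries labelled cKO, and the 95% interval of its log2 fold change ran from -0.26 to 0.14.

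**Figure D4:**
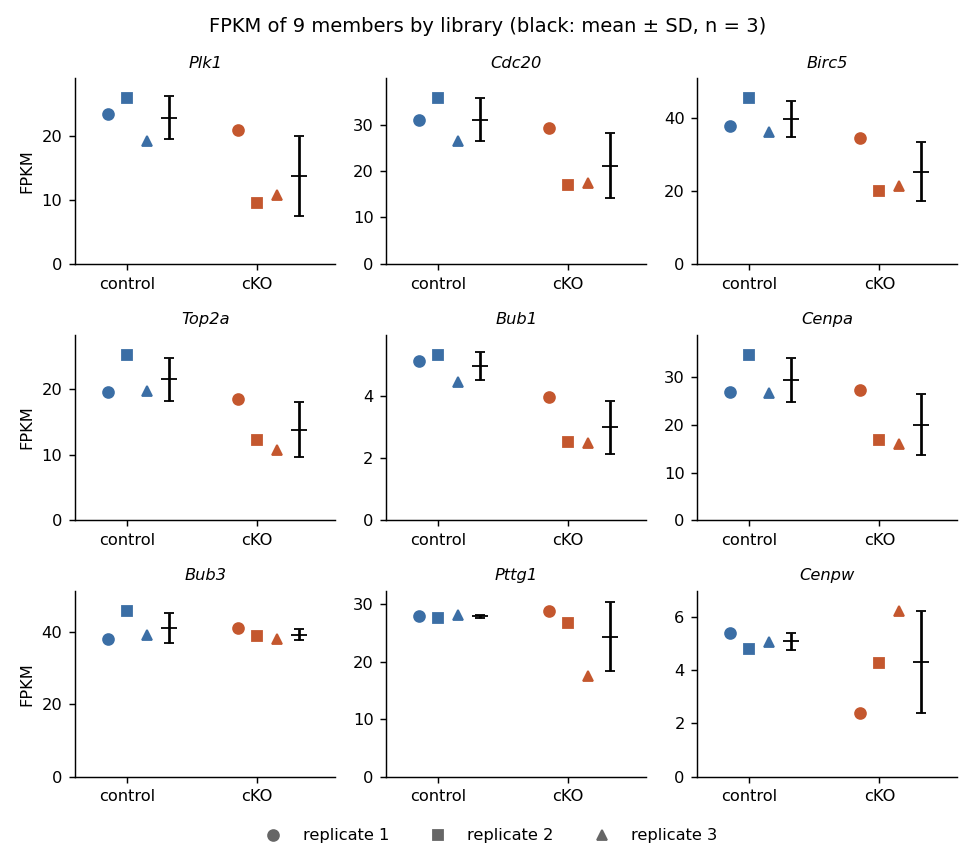
FPKM (y axis, from 0) of 9 members in the 3 control and the 3 libraries labelled cKO, with a symbol for each replicate number and black marks for the mean ± SD (n = 3). In *Plk1*, *Cdc20*, *Birc5*, *Top2a*, *Bub1* and *Cenpa* the low values are those of cKO replicates 2 and 3. *Bub3* is level across the libraries, *Pttg1* is low in cKO replicate 3 alone at 17.5 FPKM, and *Cenpw* is lowest in cKO replicate 1 at 2.38 FPKM.

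The outer kinetochore binds microtubules through the NDC80 complex, and 6 of its 9 genes were lower at an unadjusted p under 0.05, with 3 of 9 not overlapping. The 4 subunits of the NDC80 complex, which are present in equal numbers in the protein, had control means of 8.56 (*Ndc80*), 10.1 (*Nuf2*), 10.8 (*Spc24*) and 12.0 FPKM (*Spc25*). In the libraries labelled cKO their means were 5.38, 6.22, 7.64 and 8.11 FPKM, so their order was kept. *Spc24* was at 10.8, 11.5 and 10.0 FPKM in the controls and at 11.4, 6.0 and 5.56 FPKM in those labelled cKO, and *Spc25* at 10.7, 14.3 and 11.1 FPKM and at 11.6, 7.32 and 5.42 FPKM. In both genes cKO replicate 1 lay within the controls while replicates 2 and 3 were below all of them, and neither reached an unadjusted p of 0.05 (0.065 and 0.052, limma). Of the SKA complex, which tracks microtubule ends, *Ska3* was at 4.2, 5.01 and 3.56 FPKM in the controls and at 3.28, 2.53 and 2.03 FPKM in those labelled cKO (log2 fold change -0.55, standard error 0.15, adjusted p = 0.312). *Ska2* differed less, at 12.6, 10.6 and 12.3 FPKM against 11.4, 11.0 and 9.38 FPKM, with a 95% interval of the log2 fold change from -0.38 to 0.08. Exons of an antisense gene cover 10.1% of the exonic bases of *Ska2*, and the strand setting of the counting is not given in the sources used here. *Ska1*, of the same complex, and *Cenpf*, a protein of the outer corona, had log2 fold changes of -0.26 and -0.42. *Knl1*, the scaffold of the outer kinetochore, had the lowest level of the members, with a mean of 0.99 FPKM over the 6 libraries. Its values were 1.22, 1.4 and 1.07 FPKM in the controls and 1.07, 0.6 and 0.57 FPKM in those labelled cKO, a difference that its log2 fold change of -0.36 understates because of the added 1.

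Genes of the inner kinetochore, which mark and build the centromere, had log2 fold changes from -0.62 to -0.13. Those of the spindle checkpoint ran from -0.70 to -0.06. Of 13, 5 were lower at an unadjusted p under 0.05 and 4 did not overlap. *Cenpa*, which encodes the histone of centromeric chromatin, was at 27.0, 34.7 and 26.7 FPKM in the controls and at 27.4, 16.8 and 15.9 FPKM in the libraries labelled cKO (log2 fold change -0.56, standard error 0.21, adjusted p = 0.342). The chaperone that loads this histone is encoded by *Hjurp*, whose values were 24.2, 23.5 and 28.0 FPKM against 27.5, 23.8 and 16.4 FPKM, so only cKO replicate 3 was below the controls. *Cenps* had the lowest p of the class, with 4.97, 6.83 and 5.94 FPKM in the controls and 4.44, 3.4 and 2.74 FPKM in those labelled cKO (log2 fold change -0.62, standard error 0.16, adjusted p = 0.312). *Cenpt*, which links centromeric DNA to the NDC80 complex, did not overlap either but by a smaller margin, at 15.3, 14.6 and 13.9 FPKM against 12.6, 12.1 and 11.4 FPKM (log2 fold change -0.26, standard error 0.07). These 3 values labelled cKO lay close together, unlike those of most members. *Cenpw*, which encodes the partner of CENP-T, went another way, at 5.42, 4.79 and 5.08 FPKM in the controls and at 2.38, 4.29 and 6.23 FPKM in those labelled cKO. Its highest value was thus in cKO replicate 3, where 41 of the 56 members had their lowest. The remaining subunits *Cenph*, *Cenpi*, *Cenpk*, *Cenpm* and *Cenpn* had log2 fold changes between -0.53 (*Cenpk*) and -0.48 (*Cenpi*), of which those of *Cenpk* and *Cenpn* came without overlap. *Cenpp*, *Cenpq* and *Cenpl*, further subunits of the constitutive centromere network, had log2 fold changes of -0.16, -0.13 and -0.28, and for *Cenpp* exons of other genes on the opposite strand cover 12.6% of its exonic bases.

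All 4 genes of the chromosomal passenger complex, which corrects faulty attachments and directs cytokinesis, were lower at an unadjusted p under 0.05, and all 4 did not overlap. *Birc5*, which encodes survivin, was at 37.7, 45.4 and 36.1 FPKM in the controls and at 34.5, 20.0 and 21.2 FPKM in the libraries labelled cKO (log2 fold change -0.67, standard error 0.20, adjusted p = 0.312). The scaffold gene *Incenp* was at 14.3, 16.3 and 12.3 FPKM against 11.6, 8.13 and 7.14 FPKM, and *Cdca8*, encoding borealin, at 16.6, 19.2 and 15.3 FPKM against 14.8, 9.73 and 11.1 FPKM. The values of cKO replicate 1 were just under the lowest control in these 3 genes. The kinase gene *Aurkb* had a control mean of 11.6 ± 2.14 FPKM and a mean of 7.16 ± 1.79 FPKM in those labelled cKO (SD, n = 3), and the level of *Birc5* was higher than that of its 3 partners in both groups.

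The 6 genes for mitotic kinases, B-type cyclins and TPX2 were all lower at an unadjusted p under 0.05, yet 1 of them (*Cdk1*) did not overlap between the groups. *Plk1*, which lies on chromosome 7 of GRCm38 from 122159439 to 122169873 in GENCODE release M21 and encodes a kinase acting from mitotic entry to cytokinesis, had the most negative log2 fold change of the members, -0.77 (standard error 0.27, adjusted p = 0.329). It was at 23.4, 25.8 and 19.2 FPKM in the controls and at 20.8, 9.53 and 10.7 FPKM in the libraries labelled cKO, where cKO replicate 1 lay above the lowest control. *Cdk1*, the kinase that starts mitosis, was at 12.0, 14.9 and 11.4 FPKM against 10.4, 6.78 and 6.66 FPKM (log2 fold change -0.64, standard error 0.17, adjusted p = 0.312). Its activating B-type cyclins were likewise low in cKO replicates 2 and 3. *Ccnb1* was at 20.9, 23.6 and 18.9 FPKM in the controls and at 19.2, 11.0 and 12.3 FPKM in those labelled cKO, and *Ccnb2* at 25.2, 24.9 and 23.4 FPKM and at 24.3, 14.7 and 14.9 FPKM. *Aurka*, the spindle pole kinase, and *Tpx2*, which activates it on the spindle, had log2 fold changes of -0.56 and -0.52.

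Anaphase begins when CDC20 turns on the anaphase-promoting complex, which destroys securin and frees separase to cut cohesin. *Cdc20* was at 31.0, 35.7 and 26.4 FPKM in the controls and at 29.3, 16.9 and 17.3 FPKM in the libraries labelled cKO (log2 fold change -0.56, standard error 0.22, adjusted p = 0.352). *Espl1*, encoding separase, was at 2.28, 2.76 and 2.1 FPKM against 2.17, 1.4 and 1.26 FPKM, and the log2 fold change of *Sgo1*, which protects centromeric cohesion, was -0.42. In these genes cKO replicate 1 was within the controls. *Pttg1*, which encodes securin, differed from them, at 28.0, 27.7 and 28.2 FPKM in the controls and at 28.9, 26.8 and 17.5 FPKM in those labelled cKO, with cKO replicate 3 alone far from the rest. None of the 4 genes separated the groups.

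Of the 6 mitotic kinesins, 5 were lower at an unadjusted p under 0.05. *Kif20a*, needed for cytokinesis, was at 18.4, 18.9 and 16.1 FPKM in the controls and at 17.1, 9.59 and 9.42 FPKM in the libraries labelled cKO, and *Kif2c*, a microtubule depolymerase, at 9.73, 11.2 and 7.77 FPKM against 8.35, 4.39 and 4.54 FPKM. Exons of *Cdc23*, on the opposite strand, cover 29.3% of the exonic bases of *Kif20a*, and without the strand of the counting their reads may not be told apart. The log2 fold change of *Cdc23* itself was -0.14. *Kif23*, a subunit of centralspindlin, had the smallest unadjusted p of all members (0.0038, limma). It was at 9.5, 10.1 and 8.9 FPKM in the controls and at 7.78, 6.16 and 5.49 FPKM in those labelled cKO, without overlap (log2 fold change -0.50, standard error 0.12, adjusted p = 0.312). *Kif11*, the motor that separates spindle poles, also did not overlap (log2 fold change -0.55), while *Cenpe*, which carries chromosomes to the spindle equator, was at 3.71 FPKM in cKO replicate 1 and between 2.91 and 3.97 FPKM in the controls. *Kif4*, a chromosome-bound motor, had a log2 fold change of -0.48, and exons of *Pdzd11* on the opposite strand cover 15.1% of its exonic bases.

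Condensin I compacts mitotic chromosomes and topoisomerase II alpha untangles them, and 5 of these 6 genes were lower at an unadjusted p under 0.05. *Top2a* was at 19.5, 25.2 and 19.7 FPKM in the controls and at 18.5, 12.2 and 10.7 FPKM in the libraries labelled cKO (log2 fold change -0.62, standard error 0.20, adjusted p = 0.312). *Ncapd2*, a condensin I regulatory subunit, was at 10.0, 14.6 and 11.5 FPKM against 11.4, 7.88 and 7.5 FPKM, and had an unadjusted p of 0.062 from limma. The core subunits differed in level. *Smc4* was at 18.6, 19.5 and 19.2 FPKM in the controls and at 17.6, 16.8 and 14.8 FPKM in those labelled cKO, above *Smc2* in every library. Its log2 fold change was -0.21 (standard error 0.08), and that of *Smc2*, its partner in the same ring, was -0.47 (standard error 0.17). The condensin I subunits *Ncapg* and *Ncaph* had log2 fold changes of -0.47 and -0.44, and exons of *Lcorl* on the opposite strand cover 13.4% of the exonic bases of *Ncapg*.

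Other genes of mitosis outside the members were taken from 5 further lists of 84 genes, all of them tested. Of these, 39 (46.4%) were lower and 1 higher at an unadjusted p under 0.05, beside 7.76% and 5.37% of all tested genes. Without overlap in the lower direction were 32 (38.1%), beside 11.8% of all tested genes, and 0 had an adjusted p under 0.05. The 23 spindle and cytokinesis genes had a median log2 fold change of -0.55, with 16 lower at that p. The proliferation marker *Mki67* was at 7.88, 9.83 and 7.04 FPKM in the controls and at 6.8, 4.15 and 3.86 FPKM in the libraries labelled cKO (log2 fold change -0.66, standard error 0.20, adjusted p = 0.312). The 12 mitotic entry genes had a median of -0.36, with 9 lower, and among them *Ccna2*, encoding cyclin A2, was at 16.0, 18.4 and 14.2 FPKM against 14.4, 8.79 and 8.63 FPKM. The medians were nearer to 0 for 17 other kinetochore genes (-0.24, 7 lower), 14 genes of cohesin and condensin II (-0.13, 4 lower) and 18 of the anaphase-promoting complex with its partners (-0.12, 3 lower and 1 higher). In the last list *Fbxo5*, an inhibitor of the complex, differed by -0.42 on the log2 scale (standard error 0.08), and the subunit gene *Anapc13* was at 147.2, 186.6 and 184.5 FPKM in the controls and at 157.9, 188.4 and 111.8 FPKM in those labelled cKO. Differences between the lists were not tested.

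Of 15 genes of the DREAM and MuvB complexes and their partners, 4 (26.7%) were lower and 1 higher at an unadjusted p under 0.05. The shares over all tested genes were 7.76% lower and 5.37% higher. The median log2 fold change of these 15 genes was -0.08. *Foxm1* was at 8.14, 9.57 and 7.72 FPKM in the controls and at 7.58, 4.83 and 5.59 FPKM in the libraries labelled cKO (log2 fold change -0.45, standard error 0.15, adjusted p = 0.317). *Mybl2*, encoding B-MYB, was at 2.84, 3.57 and 3.16 FPKM against 2.71, 1.82 and 1.91 FPKM (log2 fold change -0.42). In both genes all 3 libraries labelled cKO were below the controls, and cKO replicate 1 was the highest of them. *Tfdp1*, the dimer partner of E2F factors, had a log2 fold change of -0.29. The gene that was higher was *E2f5* (0.17, without overlap). Log2 fold changes were -0.24, -0.03, 0.08, -0.14 and -0.08 for *Lin9*, *Lin37*, *Lin52*, *Lin54* and *Rbbp4*. For *Nfya*, *Nfyb* and *Nfyc* they were -0.05, -0.07 and -0.11. Of 24 DNA replication genes, 17 (70.8%) were lower at an unadjusted p under 0.05, and the median was -0.41. Without overlap in the lower direction were 14 (58.3%), beside 37.5% of the members and 11.8% of all tested genes. Their median level relative to the control mean was 86.0%, 69.5% and 60.7% in cKO replicates 1, 2 and 3. In that list the log2 fold change was -0.44 (standard error 0.10) for the helicase gene *Mcm7* and -0.25 (standard error 0.11) for the clamp gene *Pcna*.

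**Figure D5:**
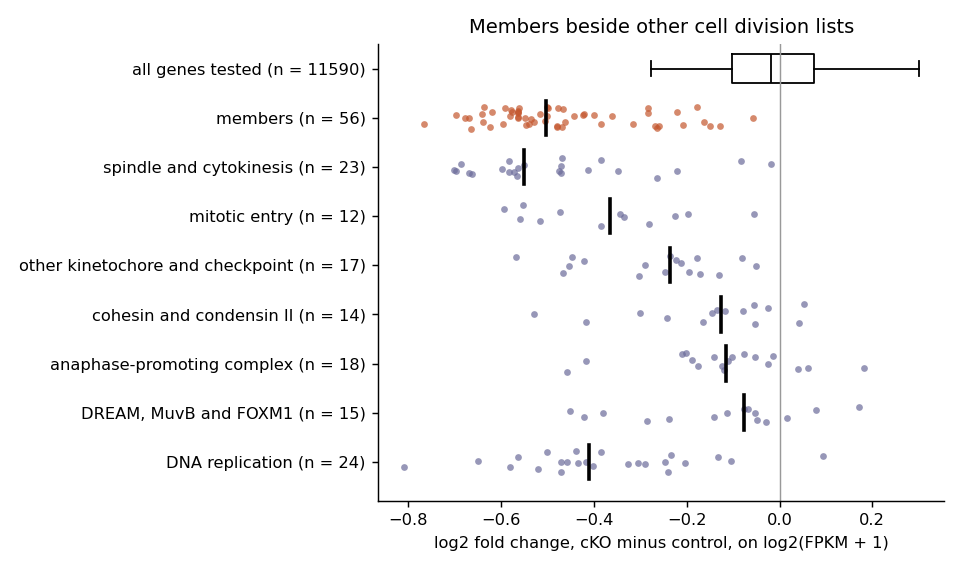
Log2 fold changes (cKO minus control, on log2(FPKM + 1), x axis) of the members and of 7 other cell division lists, 1 point per gene, with black lines at the medians. The box shows all 11590 tested genes, with whiskers at the 5th and 95th percentiles. Medians run from -0.55 for spindle and cytokinesis genes and -0.50 for the members to -0.08 for the DREAM list.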

How the data were processed

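RNA of 6 libraries (3 control, 3 labelled cKO) was enriched for polyadenylated mRNA and sequenced as 150 bp paired-end reads. The authors mapped the reads with HISAT2 to the mouse transcriptome (GRCm38 per the labels) and deposited FPKM values rounded to 2 decimals, although the file is named as raw counts and the methods name DESeq normalization. The program that computed FPKM, the annotation release and the strand setting are not given in the sources used here. FPKM is no count, so the depth of the libraries is unknown. Values of rows listed at 0 in at least 2 libraries put depths relative to control replicate 1 roughly between 0.944 and 1. This used only 10 to 17 rows for each other library and kept only ratios near 1. It therefore could not have found a large difference in depth, and no counting interval was computed. No 2 libraries were duplicates, since at most 0.301% of values over 5 FPKM were equal in a pair.

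log2(FPKM + 1) of the 11590 rows in which 3 or more libraries reached 1 FPKM was compared with limma 3.58.1 in R 4.3.3 (lmFit, eBayes, Benjamini-Hochberg adjustment over all rows tested), without covariates, and the fit was tested on simulated data. The simulation drew each gene independently, so it cannot speak to counts of members that vary together between libraries. The pseudocount of 1 understates the change of low genes. Members and lists were chosen with earlier results of these data known. Values per library were given for the 3 members of each class with the highest mean FPKM and the one with the smallest unadjusted p; *Knl1*, *Cenpw*, *Cenpe* and the members named outside this rule were chosen after their values were seen. Promoters came from RefSeq windows of GRCm38.p6, and exon overlaps from GENCODE release M21, which may differ from the authors' annotation. Alternatives changed the pseudocount, the filter, the variance trend, the scaling, a replicate block, a Y-linked covariate, and each library left out.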

Additional observations from a re-analysis of the deposited data

How the results depend on the processing

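Under the 8 alternatives that kept all 6 libraries, each count followed and the members' median log2 fold change stayed within 1.5 times of its value. The log2 fold changes of the members picked by level and p did so too, except that of *Bub3*. It was -0.0346 with quantile normalization against -0.0568 as reported. Members named outside that rule were not followed, and the log2 fold changes of low ones depend on the pseudocount. The filter of 1 FPKM in all 6 libraries kept 52 members. There were 31 to 44 members at an unadjusted p under 0.05 and 0 members with an adjusted p under 0.05. The replicate block gave the 44 and the Y-linked covariate the 31. The sources used here do not say whether same-numbered control and cKO libraries share more than a number. The correlations of their deviations from the group means were 0.03, -0.17 and 0.21, beside -0.27 to 0.28 for unlike numbers. With 3 libraries per group these correlations cannot decide whether the libraries were paired. With 1 library left out, genes with an adjusted p under 0.05 ranged from 0 to 334 and members with such a p from 0 to 32, in both cases largest without cKO replicate 1, and 2 genes passed without control replicate 3. Members at an unadjusted p under 0.05 then ranged from 17 to 49, while the share of all tested genes lower at that p ran from 3.89% to 12%. Members without overlap ranged from 21 to 51, while the share of all tested genes ran from 14.2% (without cKO replicate 3) to 24.3% (without cKO replicate 1) and was 17.9%, 15.7% and 17.4% without control replicates 1 and 2 and cKO replicate 2. The median log2 fold change of the members ran from -0.69 to -0.36, other mitotic genes at an unadjusted p under 0.05 from 21 to 55, and DNA replication genes from 10 to 21. Across those fits *Bub3* ranged in log2 fold change from -0.1078 to 0.0229, above 0 without control replicate 2, and that of *Hjurp* from -0.3302 to 0.0244, above 0 without cKO replicate 3. In 372 of the other comparisons of such picked members with an alternative, the direction and the side of the threshold were kept. In 18, each without cKO replicate 1, the adjusted p passed under 0.05. FPKM hides depth, so the counting error of low members such as *Knl1* is unknown.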
